A study of Homo sapiens with 24 samples.

Results

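Cysteine and selenocysteine transfer RNA (tRNA) genes were described in small RNA and chromatin accessibility data from HEK293, an established cell line derived from human embryonic kidney. The members were the nuclear features annotated as tRNA whose name in the deposited table begins with tRNA-Cys or tRNA-SeC, and 33 of the 175946 features met this rule. They comprised 30 cysteine features, all with the anticodon GCA, and 3 selenocysteine features with the anticodon TCA. A further 466 features were nuclear tRNA features of other isotypes. All cells were of wild-type genotype and overexpressed either the fluorescent protein eGFP as control (GFP below) or a nuclear lamin, the filament proteins of the nuclear envelope: lamin A (LMNA), lamin B1 (LMNB1) or lamin B2 (LMNB2). Each of the 4 groups had 3 replicate libraries for small RNA and 3 for the assay for transposase-accessible chromatin (ATAC), 24 libraries in all. The labels name no time after overexpression, promoter or clone, and nothing in them says that the replicates came from separate cultures, so p-values measure the spread between these libraries.

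Cysteine tRNA delivers cysteine to the ribosome, and nearly all human cysteine tRNA genes carry a GCA anticodon. They carry the usual tRNA promoter inside the gene, the A and B boxes that recruit TFIIIC and TFIIIB to RNA polymerase III. Selenocysteine tRNA is unusual: it is charged with serine, converted to selenocysteine and used at UGA codons of selenoprotein messages, and its gene relies mainly on upstream promoter elements like those of the U6 and 7SK genes, the type 3 promoter class.

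Totals per library were 132.5 to 195.1 M small RNA counts and 156.0 to 290.2 M ATAC counts (M, 1000000), and the mitochondrial chromosome took 24.5% to 47.5% of the latter. Features over the overexpressed genes were highest in the group labelled with that gene: lnc-TIMM13-3 at the LMNB2 locus had 49.2 to 57.6 small RNA counts per M of the scaled total (CPM) in LMNB2 and 0.0338 to 0.0661 in GFP, LMNB1-DT had 17.6 to 19.3 in LMNB1, 0.397 to 0.426 in LMNB2 and 0.0601 to 0.14 in GFP, and the ATAC window on lnc-SEMA4A-1 at the LMNA locus had 3740 to 5330 CPM in LMNA and 8.87 to 13.2 in GFP. No small RNA feature was used to check the LMNA libraries. The miR-17-92 host MIR17HG had 4668 to 13132 counts, whereas MIR122 (hepatocyte) had 1 to 8, MIR142 (blood) 0 to 6, and MIR133A1, MIR1-1, MIR223, MIR124-1 and MIR451A 0 to 2. The small RNA libraries of the GFP group stood furthest apart, with scaling factors of 0.631, 0.905 and 1.31 by the trimmed mean of M-values (TMM), against 0.878 to 1.16 in the lamin libraries. The part of this spread in the results below was not tested beyond leaving out libraries and changing the scaling.

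The cysteine genes were concentrated on chromosome 7, which held 18 of the 30 in neighbouring groups of 6, spanning 105.1 kb, and 12, spanning 161.3 kb. Chromosome 17 held 6, as a group of 4 within 35.7 kb and a pair within 0.9 kb. Chromosome 3 held 2, and chromosomes 1, 4, 14 and 15 held 1 each. The selenocysteine features lay on chromosomes 19 (TRU-TCA1-1), 22 (TRU-TCA2-1) and 17 (tRNA-SeC-TCA-3-1). Of the 33 intervals, 31 covered a RefSeq tRNA gene (GRCh38.p14) and take its symbol here, and 29 of them extended 25 bp past it on each side. The other two, tRNA-Cys-GCA-24-1 and tRNA-SeC-TCA-3-1, keep their deposited names. TRC-GCA7-1 lay within FNBP1L, TRU-TCA2-1 within PARVB, and 6 chromosome 7 genes within the pseudogene ZNF767P, while 12 members overlapped a long non-coding RNA (lncRNA) feature whose reads cannot be told apart from theirs. Deposited names repeated between loci: the 30 cysteine intervals carried 18 names, with tRNA-Cys-GCA-1-2 used at 6 loci (TRC-GCA2-1, 2-2, 2-3, 2-4, 5-1 and 7-1) and tRNA-Cys-GCA-5-3 at 4 (TRC-GCA9-1 to 9-4). Loci with the same name share an RNA sequence identifier in these 2 cases. How reads that fit several loci were counted is not given in the sources used here, so the split of counts between such copies is uncertain, although their counts were not equal.

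Levels of the cysteine members in small RNA, as mean CPM per kb of interval over the 12 libraries, ran from 1.37 at TRC-GCA11-1 to 379 at TRC-GCA2-4, a 277-fold range around a median of 19.2. TRC-GCA2-4 (chromosome 17, 39154466 to 39154587, minus strand, GRCh38 as for all intervals below) alone held 34.8% of the summed cysteine CPM, the 4 TRC-GCA2 genes together held 51.9%, and the 18 genes of chromosome 7 held 26.3%. TRC-GCA2-4 had 66.5, 37.3 and 48.1 CPM in the GFP libraries, 42.7, 52.2 and 50.5 with LMNA, 43.9, 57.5 and 44.0 with LMNB1, and 44.4, 31.8 and 35.5 with LMNB2. The highest and lowest values outside LMNB2 were both GFP libraries, and all groups overlapped. The next highest was TRC-GCA2-1 (chromosome 4), at 82.7 CPM per kb. TRC-GCA2-3 at 56.0, TRC-GCA14-1 at 53.6, TRC-GCA17-1 at 52.1, TRC-GCA6-1 at 51.3 and TRC-GCA2-2 at 46.8 followed in CPM per kb. Their order is not resolved, because each spanned a wider range between libraries than the gap to its neighbour.

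**Figure D1:**
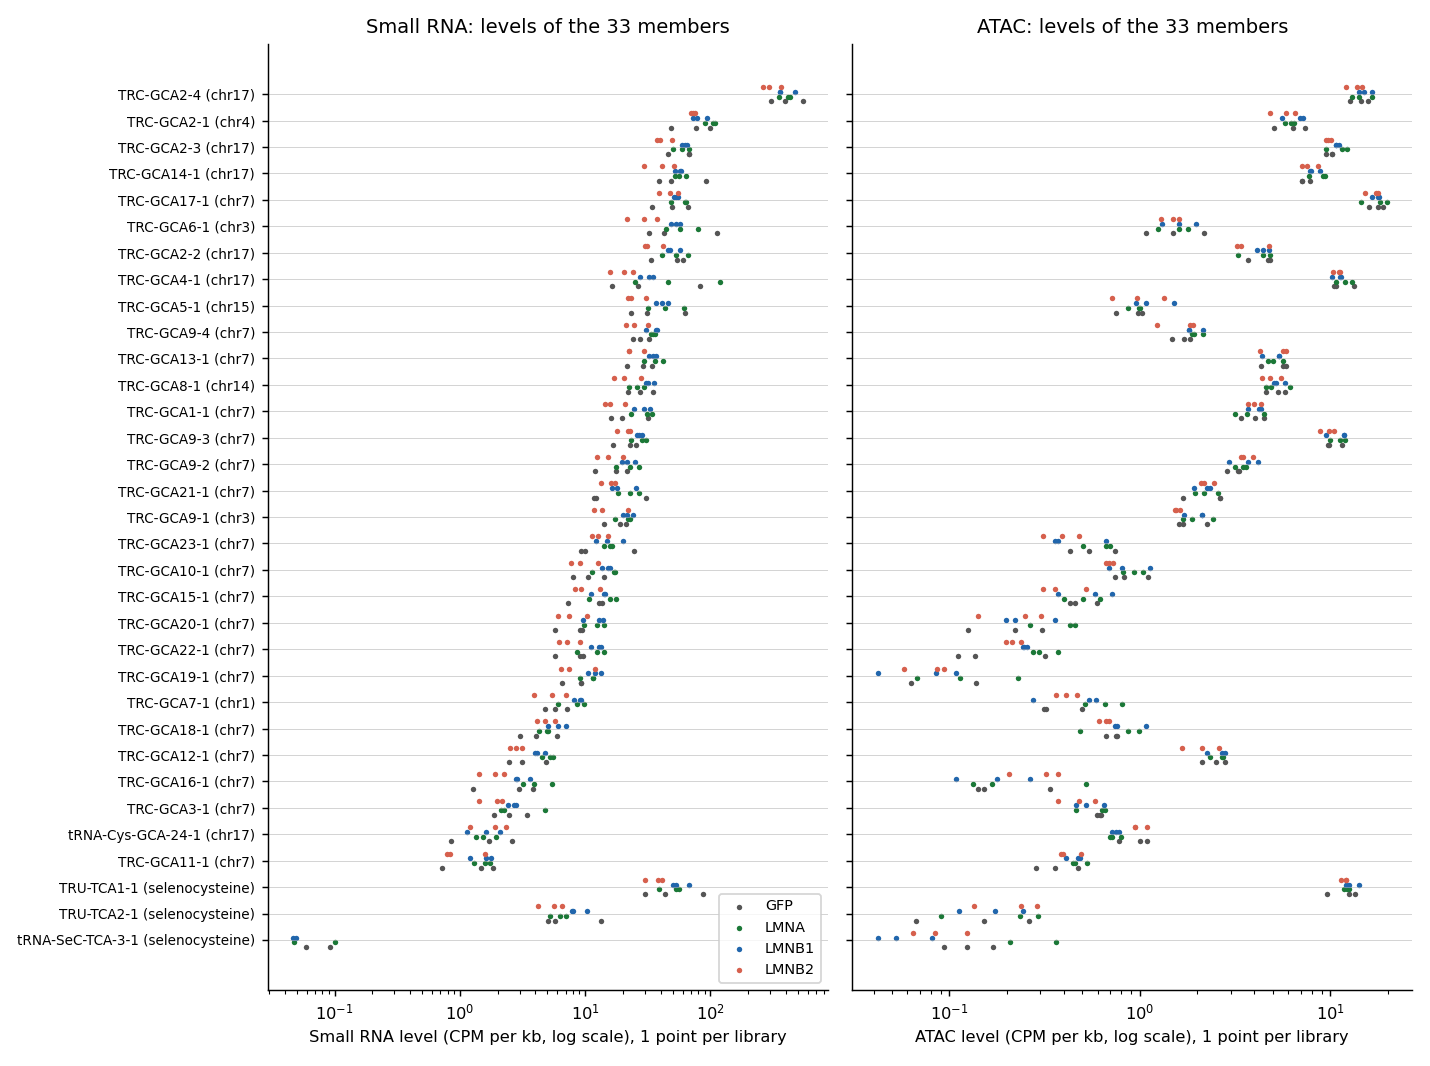
Levels of the 33 members in small RNA (left) and ATAC (right), in CPM per kb on a log axis, with 1 point per library coloured by group and members ordered by their small RNA level. TRC-GCA2-4 stands at 379 CPM per kb in small RNA while the lowest cysteine member is at 1.37; libraries with 0 counts are not drawn.

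The lowest cysteine member, TRC-GCA11-1 (chromosome 7, 149415113 to 149415234), had between 12 and 40 counts in a library. It read 0.18, 0.0882 and 0.225 CPM in GFP, 0.193, 0.159 and 0.211 with LMNA, 0.199, 0.147 and 0.215 with LMNB1, and 0.0965, 0.102 and 0.192 with LMNB2, with all groups overlapping. Between libraries the highest CPM of a cysteine member was 1.78 to 7.46 times its lowest, with a median of 2.34.

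The cysteine genes that ranged most between libraries were TRC-GCA4-1 and TRC-GCA6-1. TRC-GCA4-1 (chromosome 17, 38869267 to 38869388) had 3.20, 2.01 and 9.98 CPM in GFP, 5.61, 3.07 and 14.5 with LMNA, 3.92, 3.37 and 4.27 with LMNB1, and 2.51, 1.94 and 2.94 with LMNB2. GFP replicate 3 and LMNA replicate 3 were 3.84 and 3.34 times the mean of the other two of their group. TRC-GCA6-1 (chromosome 3, 132229075 to 132229196) had 5.17, 3.94 and 13.7 CPM in GFP, 6.95, 5.41 and 9.70 with LMNA, 6.46, 5.90 and 6.97 with LMNB1, and 3.63, 2.65 and 4.61 with LMNB2. GFP replicate 3 was 3.00 times the mean of the other two here and 2.30 times at TRC-GCA5-1. TRC-GCA21-1 and TRC-GCA23-1 went the other way, at 0.554 and 0.541 times. Across groups, replicate 2 was the lowest of its group in 29 of the 33 members in GFP, 30 in LMNA and 30 in LMNB2, and replicate 1 in 22 in LMNB1. Replicate 3 was the highest in 18, 23, 19 and 25 members of GFP, LMNA, LMNB1 and LMNB2.

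Of the selenocysteine genes, TRU-TCA1-1 (chromosome 19, 45478577 to 45478712), which encodes the functional tRNA, had 49.0 CPM per kb in small RNA, at the level of the upper cysteine genes. It had 5.88, 4.12 and 11.8 CPM in GFP, 7.6, 5.32 and 7.2 with LMNA, 7.25, 6.83 and 9.11 with LMNB1, and 5.17, 4.09 and 5.56 with LMNB2. TRU-TCA2-1 (chromosome 22, 44150632 to 44150768) had 7.10 CPM per kb, with 0.782, 0.698 and 1.83 CPM in GFP, 0.865, 0.718 and 0.959 with LMNA, 1.07, 1.09 and 1.41 with LMNB1, and 0.778, 0.576 and 0.895 with LMNB2. TRU-TCA2-1 is generally regarded as a pseudogene. Both were highest in GFP replicate 3, at 2.37 and 2.47 times the mean of the other two. The counts of TRU-TCA2-1 came to 11.4% to 17.0% of those of TRU-TCA1-1 in every library, whereas in ATAC the corresponding share was 0.697% to 2.36%. Reads shared between the genes were not tested. tRNA-SeC-TCA-3-1 (chromosome 17, 40117275 to 40117398) had 0 to 2 small RNA counts per library, below the 3 counts that an observation of 0 allows (counting error only), and was not tested in small RNA.

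Together the cysteine features took 1.19% of all nuclear tRNA counts in small RNA, rank 13 of 24 isotype names, and 3.51% in ATAC, rank 15. The selenocysteine features took 0.0676% and 0.39%. This share does not depend on scaling between libraries. For cysteine in small RNA it was 1.52%, 1.12% and 1.14% in GFP, 1.17%, 1.15% and 1.38% with LMNA, 1.18%, 1.34% and 1.23% with LMNB1, and 1.03%, 0.921% and 1.05% with LMNB2. All 3 LMNB2 libraries lay below the other 9. That pattern was not limited to cysteine, since 5 of the 21 isotypes with at least 7 features showed it, 0 showed the opposite and 16 overlapped. Without TRC-GCA2-4 the LMNB2 shares were 0.618%, 0.589% and 0.73%, and they overlapped GFP replicate 2 (0.68%) and LMNA replicate 2 (0.698%). In ATAC the share was 3.39% to 3.62%, with LMNB2 overlapping the other groups and LMNB1 (3.50% to 3.59%) just above GFP (3.42% to 3.49%). Such separation of LMNB1 from GFP was not limited to cysteine either: leucine, proline and lysine shares were also higher, and aspartate, glutamine and tyrosine shares lower.

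**Figure D2:**
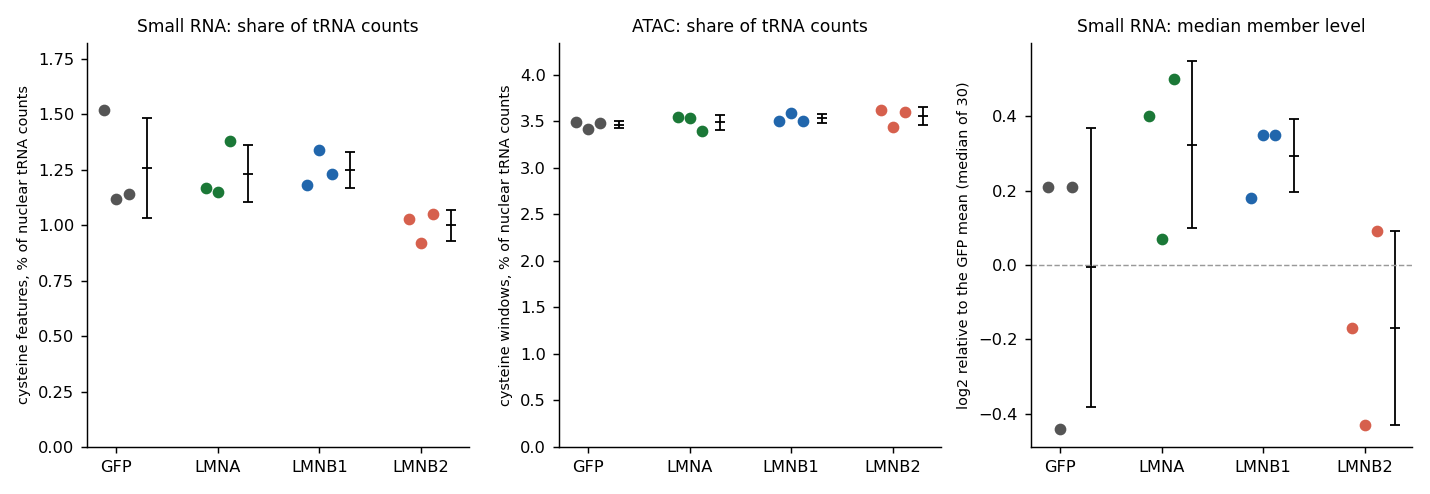
Cysteine features as a percentage of all nuclear tRNA counts in small RNA (left) and ATAC (middle), and the median small RNA level of the 30 cysteine members as log2 relative to each member's GFP mean (right). Points are libraries and bars are mean ± SD of 3; the LMNB2 small RNA shares of 0.921% to 1.05% lie below the other 9 libraries, while the LMNB2 ATAC shares overlap those of the other groups.

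Chromatin accessibility was counted over windows 125 bp wider than the small RNA intervals on each side. Across the cysteine members it ran from 0.0904 CPM per kb at TRC-GCA19-1 to 17.3 at TRC-GCA17-1, a 191-fold range with a median of 1.83. Chromosome 7 held 44.0% of the summed ATAC CPM and TRC-GCA2-4 12.3%. TRC-GCA17-1 (chromosome 7, 149691156 to 149691277) had 7.05, 6.64 and 5.93 CPM in GFP, 7.39, 6.76 and 5.37 with LMNA, 6.68, 6.64 and 6.15 with LMNB1, and 6.47, 5.68 and 6.64 with LMNB2, and all groups overlapped. TRC-GCA2-4 followed at 14.4 CPM per kb, with 4.52 to 6.20 CPM in all 12 libraries. TRC-GCA4-1 came next at 11.3 CPM per kb (3.81 to 4.97 CPM), and TRC-GCA9-3 (chromosome 7, 149635662 to 149635783) had 10.5 (3.29 to 4.43 CPM). The lowest cysteine windows were TRC-GCA22-1 (0.242 CPM per kb, 8 to 29 counts) and TRC-GCA19-1 (0 to 15 counts), both within ZNF767P. TRC-GCA16-1, outside ZNF767P, was level with TRC-GCA22-1, at 0.243 CPM per kb (9 to 39 counts). ATAC levels were steadier than small RNA levels: the highest library was 1.29 to 4.83 times the lowest, with a median of 1.58, leaving out TRC-GCA19-1, which had 0 counts in a GFP library.

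The selenocysteine windows were far apart in level. TRU-TCA1-1 had 12.2 CPM per kb, with 5.20, 4.86 and 3.70 CPM in GFP, 4.72, 4.55 and 4.83 with LMNA, 5.50, 4.86 and 4.65 with LMNB1, and 4.68, 4.41 and 4.68 with LMNB2. TRU-TCA2-1 had 0.19 CPM per kb (5 to 32 counts) and tRNA-SeC-TCA-3-1 had 0.117 (0 to 27 counts). Set against the 5 kb flanks on both sides, the TRU-TCA1-1 window was 36.0 times as dense in ATAC counts, TRU-TCA2-1 1.69 times and tRNA-SeC-TCA-3-1 0.0816 times.

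The same ratio for cysteine genes was 130 at TRC-GCA17-1, 72.6 at TRC-GCA9-3, 59.3 at TRC-GCA9-2, 42.9 at TRC-GCA1-1 and 42.1 at TRC-GCA13-1, all on chromosome 7. At TRC-GCA19-1 it was 0.764. The ratio exceeded 5 at 22 of the 30 cysteine genes (73.3%) and at 269 of the 466 other tRNA features (57.7%), a difference that was not tested. It depended on the flank: the shares were 70.0% and 40.3% with flanks of 500 bp, and 70.0% and 68.5% with flanks of 50000 bp. With the widest flanks the median ratio was 7.42 for cysteine genes and 9.75 for the other tRNA features. Flanks can hold further tRNA genes: TRC-GCA2-4 and TRC-GCA2-3 lie within 0.9 kb of each other, and their ratios were 12.5 and 8.12.

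**Figure D3:**
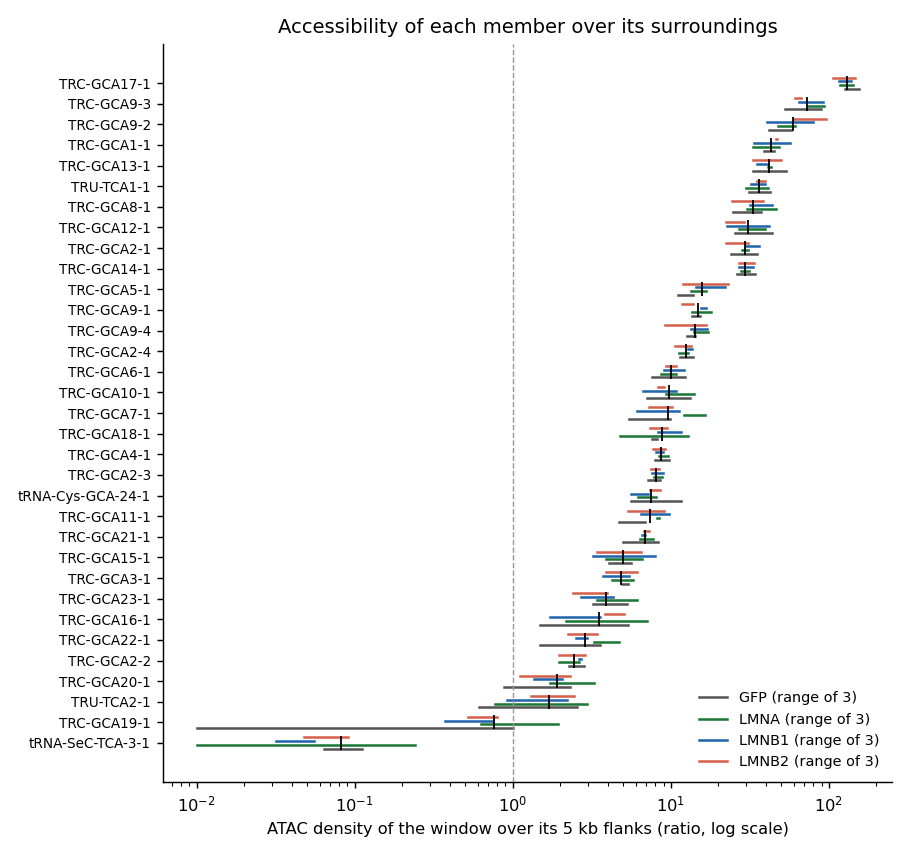
ATAC counts per kb in each member's window divided by those in its 5 kb flanks, on a log axis. Coloured bars span the 3 libraries of a group, black ticks give the ratio of the 12-library means and values of 0 are drawn at 0.01; TRC-GCA17-1 is highest at 130 and tRNA-SeC-TCA-3-1 lowest at 0.0816.

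Members with more accessible windows also had higher small RNA levels. Over the 30 cysteine members Spearman's rho between the 2 levels per kb was 0.78 and Pearson's r of the log10 levels was 0.71. Within chromosome 7 rho was 0.70 (n = 18) and elsewhere 0.76 (n = 12). The members share libraries and near-identical copies, so the values describe these genes and carry no test. TRC-GCA17-1 and TRC-GCA2-4 had similar accessibility, 17.3 and 14.4 CPM per kb, but 52.1 and 379 CPM per kb of small RNA. TRC-GCA6-1 reached 51.3 CPM per kb of small RNA with a window at 1.56.

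**Figure D4:**
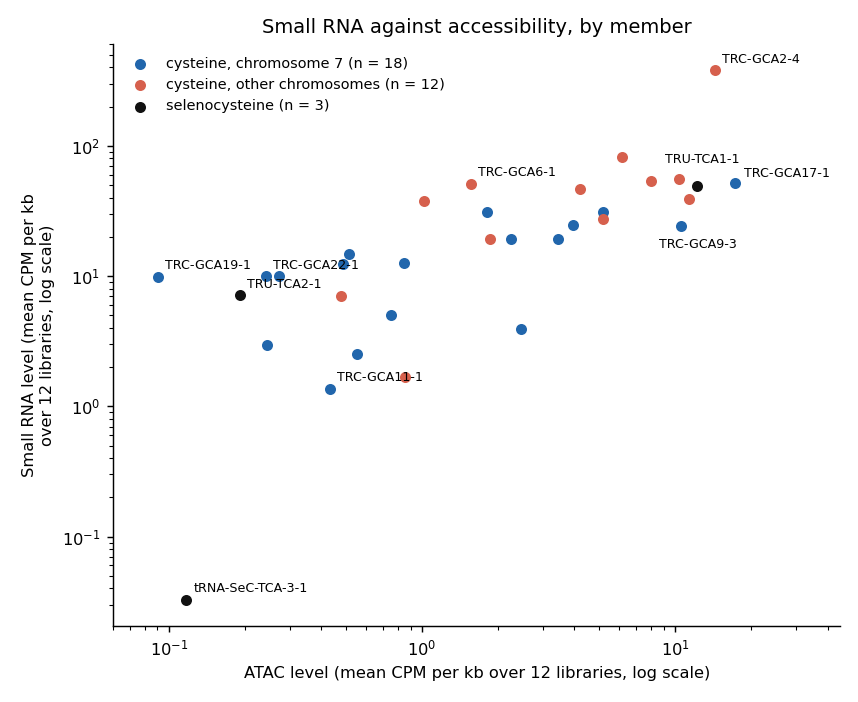
Mean small RNA level against mean ATAC level of each member, both in CPM per kb over 12 libraries on log axes, with cysteine genes on chromosome 7, cysteine genes elsewhere and selenocysteine features in different colours. Spearman's rho is 0.78 over the 30 cysteine members, and TRC-GCA2-4 stands above genes of like accessibility.

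The comparisons of each lamin with GFP, which share the 3 GFP libraries, asked whether lamin overexpression changed these genes. A member counts as changed where its adjusted p in edgeR's quasi-likelihood test, over all features tested, was under 0.05. In small RNA 32 of the 33 members could be tested, and 0 changed in LMNA (0.0% of all tested features), 0 in LMNB1 (0.0384%) and 0 in LMNB2 (2.66%). DESeq2 called 0 of the 18, 32 and 31 members to which it gave an adjusted p in LMNA, LMNB1 and LMNB2, and 0 of 32 in each when its p-values were adjusted over all features, an alternative chosen after seeing the data. At an unadjusted p under 0.05 DESeq2 had 2, 4 and 2 members, and its share over all features was not worked out. At an unadjusted p under 0.05, edgeR gave 4 members higher and 0 lower in LMNA (background 2.83% and 2.63%), 5 higher and 0 lower in LMNB1 (2.23% and 3.28%), and 0 higher and 3 lower in LMNB2 (9.58% and 10.4%). For LMNB2 the 3 of 32 therefore sit near the background. Among the 431 other tRNA features tested, edgeR gave 58 higher and 1 lower in LMNA at this unadjusted threshold. It gave 25 and 6 in LMNB1, and 10 and 74 in LMNB2.

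In LMNA and LMNB1 the cysteine log2 fold changes leaned upward, with medians of 0.32 (24 of 30 above 0) and 0.20 (25 of 30). The medians of the other tRNA features were 0.11 and 0.06, and those of all tested features −0.05 and −0.05. Of the 33893 features tested, 14598 and 14937 were above 0 in LMNA and LMNB1. All 18 chromosome 7 genes were above 0 in both lamins, with medians of 0.35 and 0.31, while the 6 on chromosome 17 had medians of −0.05 and −0.06. These genes share the GFP libraries and include near-identical copies, so they are not independent, and the chromosomes were not compared by a test. In LMNB2 the cysteine median was −0.20 (27 of 30 below 0), equal to that of the other tRNA features (−0.20), against −0.04 for all features. By chromosome it was −0.14 on chromosome 7 and −0.52 on chromosome 17. These LMNB2 signs depend on scaling: with total counts in place of TMM factors the cysteine median was 0.03 (16 of 30 above 0) and that of all features 0.19. The per-library medians relative to GFP were 0.21, −0.44 and 0.21 in GFP itself, 0.40, 0.07 and 0.50 with LMNA, 0.18, 0.35 and 0.35 with LMNB1, and −0.17, −0.43 and 0.09 with LMNB2. Single GFP libraries also moved these medians: without GFP replicate 2 the LMNB1 median turned to −0.03, and without GFP replicate 3 the LMNB2 median shrank to −0.03. All 3 lamins overlapped GFP, and 2 LMNA and 2 LMNB1 libraries lay above the highest GFP library.

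The LMNA members with the lowest p were TRC-GCA12-1 and TRC-GCA20-1, both on chromosome 7. TRC-GCA12-1 (149646930 to 149647051) had 0.301, 0.382 and 0.591 CPM in GFP and 0.641, 0.552 and 0.678 in LMNA, overlapping in 1 LMNA library. It read 0.501, 0.581 and 0.487 in LMNB1 and 0.380, 0.307 and 0.341 in LMNB2. Its LMNA log2 fold change was 0.52 ± 0.20 (standard error, SE), with an unadjusted p of 0.0175 and an adjusted p of 0.895 in edgeR's quasi-likelihood test. Leaving out GFP replicate 3 gave 0.91, with an adjusted p of 0.0248 in the same edgeR test. TRC-GCA20-1 (149597930 to 149598051) had 1.12, 0.698 and 1.16 CPM in GFP, 1.52, 1.19 and 1.71 with LMNA, 1.18, 1.69 and 1.58 with LMNB1, and 0.899, 0.742 and 1.26 with LMNB2. The LMNA and LMNB1 libraries all exceeded GFP, by log2 fold changes of 0.57 ± 0.23 in both (edgeR's quasi-likelihood test, adjusted p of 0.895 and 0.861). In LMNA 2 members, this and TRC-GCA9-4, had all libraries above GFP and 0 below it (background 4.16% and 5.34%), and in LMNB1 5 were above, TRC-GCA7-1, 9-3, 19-1, 20-1 and 22-1, and 0 below (background 4.76% and 5.29%). In LMNB2 0 members were separate from GFP in either direction (background 12.1% higher, 10.2% lower). Of 431 other tRNA features, 48, 23 and 6 were separate above GFP in LMNA, LMNB1 and LMNB2, and 1, 3 and 62 below.

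For LMNB1 the lowest p-values belonged to TRC-GCA22-1 and TRC-GCA7-1. TRC-GCA22-1 (chromosome 7, 149556686 to 149556805) had 1.16, 0.691 and 1.09 CPM in GFP and 1.33, 1.62 and 1.54 in LMNB1, a log2 fold change of 0.60 ± 0.22. Its LMNA libraries had 1.49, 1.03 and 1.71 CPM and its LMNB2 libraries 0.856, 0.736 and 1.10, overlapping GFP in both cases. TRC-GCA7-1 (chromosome 1, 93516252 to 93516374) had 0.713, 0.588 and 0.884 in GFP and 1.01, 1.12 and 1.14 in LMNB1, a log2 fold change of 0.57 ± 0.21. It read 1.05, 0.753 and 1.2 CPM in LMNA and 0.675, 0.480 and 0.860 in LMNB2, again overlapping GFP. In both genes all LMNB1 libraries were higher than GFP, with adjusted p-values of 0.839 and 0.852 in edgeR's quasi-likelihood test.

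For LMNB2 they belonged to TRC-GCA6-1 and TRC-GCA2-3. TRC-GCA6-1 missed the threshold at a log2 fold change of −1.06 ± 0.41 (edgeR's quasi-likelihood test, adjusted p of 0.175). Without GFP replicate 3 its value was −0.28, with an adjusted p of 0.544 in the same edgeR test. Its values in LMNA and LMNB1, −0.05 ± 0.40 and −0.24 ± 0.40, turned to 0.75 and 0.56 without that library. In both TRC-GCA6-1 and TRC-GCA2-3 the LMNB2 libraries overlapped GFP but lay below every LMNA and LMNB1 library. TRC-GCA2-3 (chromosome 17, 39153709 to 39153830) had 8.21, 5.60 and 8.29 CPM in GFP, 7.23, 6.14 and 8.19 with LMNA, 7.62, 7.24 and 7.93 with LMNB1, and 4.86, 4.56 and 6.06 with LMNB2. Its LMNB2 log2 fold change was −0.51 ± 0.21 with an adjusted p of 0.187 in the same edgeR quasi-likelihood test. TRC-GCA2-2 was the third member with an unadjusted p under 0.05, at −0.53. TRC-GCA2-4, the most abundant gene, had log2 fold changes of −0.06 ± 0.25 in LMNA, −0.06 ± 0.25 in LMNB1 and −0.44 ± 0.25 in LMNB2, with 95% intervals of −0.58 to 0.46, −0.58 to 0.45 and −0.96 to 0.08. TRC-GCA4-1 had 0.61 ± 0.65, −0.39 ± 0.65 and −1.04 ± 0.66. Its LMNA value was 1.63 without GFP replicate 3 and −0.21 without LMNA replicate 3, and its LMNB2 value was −0.03 without GFP replicate 3.

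The selenocysteine genes had log2 fold changes of −0.12 ± 0.30, 0.09 ± 0.30 and −0.56 ± 0.30 (TRU-TCA1-1) and −0.38 ± 0.32, 0.10 ± 0.31 and −0.56 ± 0.32 (TRU-TCA2-1) in LMNA, LMNB1 and LMNB2. Their lowest adjusted p was 0.317 in edgeR's quasi-likelihood test. These values rest on GFP replicate 3, without which they were 0.49, 0.68 and 0.03 for TRU-TCA1-1 and 0.26, 0.73 and 0.06 for TRU-TCA2-1, so that the LMNA and LMNB2 directions turned. A list of 17 features named for type 3 promoter genes, holding U6, U6atac, 7SK, RNase P, RNase MRP and Y RNA genes, had 0 changed features in each lamin by the same test. At an unadjusted p under 0.05 there were 0 in LMNA (background 2.83% higher, 2.63% lower), 2 lower in LMNB1 (3.28%) and 2 higher in LMNB2 (9.58%). Most of the 17 were U6 copies, several with repeated names, and both in LMNB1 were U6 copies. Reads shared between these copies were not tested. The median log2 fold changes of the list were 0.15, −0.27 and −0.09. In LMNB1 the 11 features below 0 were the U6 copies (−0.73 to −0.27), U6atac and RNase MRP. The 6 above 0 were 7SK, RNase P and the Y RNA genes (0.06 to 0.26). The largest in LMNB2 were the Y RNA genes RNY1 and RNY5, at 0.55 and 0.54 (edgeR's quasi-likelihood test, adjusted p of 0.228 and 0.244).

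**Figure D5:**
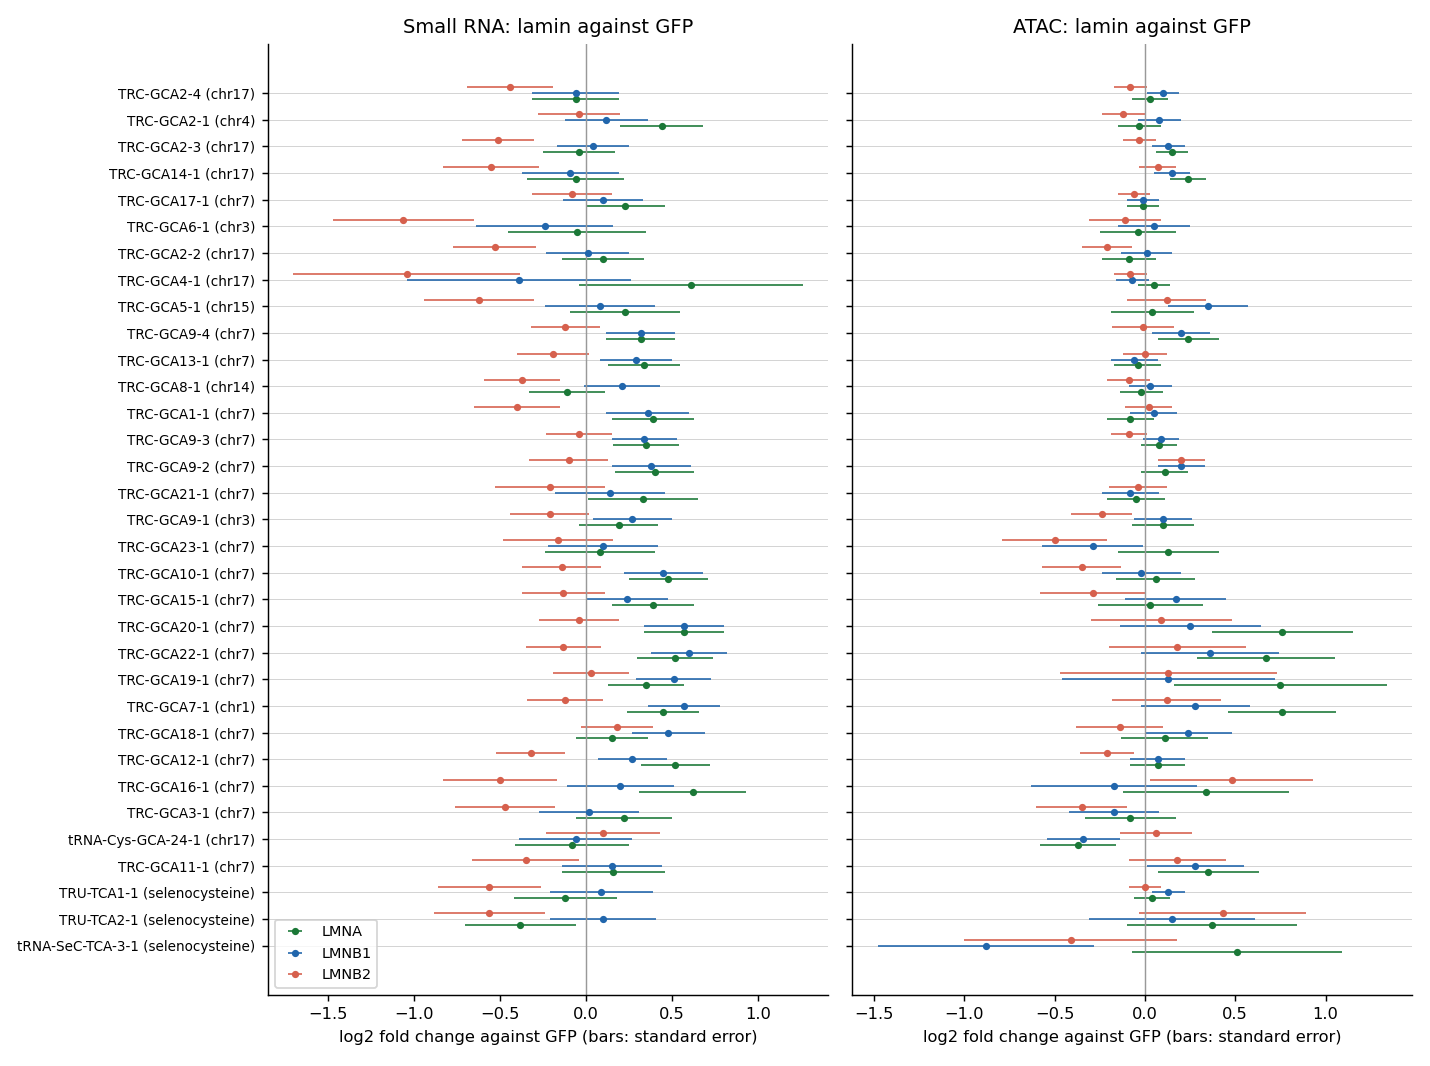
Log2 fold change of each member against GFP in small RNA (left) and ATAC (right), with 1 point per lamin and bars of 1 standard error. LMNB2 lies lowest of the lamins in 30 of the 32 members tested in small RNA with TMM scaling; 0 members passed the adjusted threshold in either assay.

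The widest contrast was among the lamins themselves, in small RNA. LMNB2 had the lowest mean CPM of the 3 lamins in 30 of the 32 tested members, against 38.9% of all tested features, and in 353 of 431 other tRNA features. Median log2 differences of the members were −0.50 for LMNB2 minus LMNA, −0.49 for LMNB2 minus LMNB1 and −0.02 for LMNB1 minus LMNA, against −0.01, −0.01 and 0.01 over all features and −0.41, −0.34 and −0.08 over the other tRNA features. The 3 LMNB2 libraries lay below all 6 LMNA and LMNB1 libraries in 10 of the 32 members (31.2%), against 7.71% of all features and 35.3% of the other tRNA features. With total counts in place of TMM factors, 29 and 31 of 32 members were still lower in LMNB2 than in LMNA and LMNB1, with medians of −0.28 and −0.42, while the medians of all features were 0.20 and 0.06. In bulk samples such as these, fewer cells with an RNA and less of it per cell cannot be told apart.

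In the joint test of the 3 lamins with all 12 libraries, edgeR's quasi-likelihood test called 0 of the 32 members (background 1.93%). DESeq2 called 0 of 32, with 12 at an unadjusted p under 0.05, for which no share over all features was worked out. At an unadjusted p under 0.05 edgeR gave 11 members (background 16.0%), LMNB2 being the lowest lamin in all 11. It gave 86 of 431 other tRNA features, LMNB2 being the lowest in 79. The lowest adjusted p of a member in this edgeR test was 0.0749, for TRC-GCA12-1. When only the 9 lamin libraries were fitted, the same test called 14 of 32 members (43.8%), all 14 with LMNB2 lowest. At an unadjusted p under 0.05 it gave 22 members (background 26.4%) and 264 of 429 other tRNA features. The background of the calls was 12% for all features, 4.87% for calls with LMNB2 lowest, and 32.9% of the other tRNA features were called. The difference between the members and the other tRNA features was not tested. The count of 14 became 3 without LMNB2 replicate 2, 5 without LMNB2 replicate 1 and 8 without LMNB1 replicate 3. It became 21 without LMNB2 replicate 3 and 22 without LMNA replicate 2, and it was 7 with total counts only and 5 without lncRNA features. The share of all features called in these alternative fits was not worked out, so whether these shifts are particular to the members is not known.

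The 14 were TRC-GCA1-1, 2-1, 2-2, 2-3, 6-1, 7-1, 8-1, 10-1, 12-1, 13-1, 16-1 and 22-1 with TRU-TCA1-1 and TRU-TCA2-1. TRC-GCA12-1 had the lowest adjusted p in the 9 libraries, 0.0018 in edgeR's quasi-likelihood test, and its log2 differences were −0.84 ± 0.15 (SE) for LMNB2 minus LMNA and −0.59 ± 0.15 for LMNB2 minus LMNB1. TRC-GCA16-1 (chromosome 7, 149546515 to 149546636) had 0.473, 0.387 and 0.661 CPM with LMNA, 0.441, 0.349 and 0.342 with LMNB1, and 0.277, 0.173 and 0.234 with LMNB2. TRC-GCA1-1 (chromosome 7, 149310165 to 149310286) had 4.16, 2.85 and 3.78 with LMNA, 3.59, 2.99 and 4.01 with LMNB1, and 1.93, 1.76 and 2.56 with LMNB2. In all 3 genes the LMNB2 libraries lay below every LMNA and LMNB1 library. Their GFP libraries did not separate from LMNB2: TRC-GCA1-1 read 2.39, 1.96 and 3.88 CPM in GFP, and TRC-GCA16-1 read 0.472, 0.154 and 0.361. LMNB2 minus LMNB1 was −0.64 ± 0.15 for TRU-TCA1-1 and −0.66 ± 0.16 for TRU-TCA2-1. LMNB2 minus LMNA was −0.44 ± 0.15 and −0.18 ± 0.16, and LMNB1 minus LMNA was 0.20 ± 0.15 and 0.48 ± 0.16. In 0 of these 2 genes did all LMNB2 libraries lie below all 6 LMNA and LMNB1 libraries. The joint edgeR quasi-likelihood test of 9 libraries gave adjusted p-values of 0.0168 and 0.0154, which cover the 3 lamins together and no single pair. TRC-GCA2-4 was not among the 14, at −0.38 ± 0.13 against both LMNA and LMNB1 (adjusted p of 0.0871 in that edgeR test).

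Accessibility differed less between the lamins, though the assays were not compared by a test. All 33 members could be tested in ATAC, and edgeR's quasi-likelihood test called 0 in LMNA (background 0.000611%), 0 in LMNB1 (0.00305%), 0 in LMNB2 (0.00244%) and 0 in the joint test (0.0916%). DESeq2 gave an adjusted p to 18, 0, 17 and 18 members in these tests and called 0, and it also called 0 of 33 in each with p-values adjusted over all features. At an unadjusted p under 0.05 it had 2, 0, 0 and 0, again without a share over all features. At an unadjusted p under 0.05 there were 2 members higher and 0 lower in LMNA (background 2.82% and 2.37%), 0 and 0 in LMNB1 (2.26% and 2.52%), 0 and 0 in LMNB2 (2.89% and 2.83%) and 0 in the joint test (6.24%). Among 449 other tRNA windows, edgeR gave 14 higher and 2 lower in LMNA and 9 and 2 in LMNB1. It gave 2 and 57 in LMNB2 and 64 in the joint test. All 3 LMNB2 libraries lay below the other 6 lamin libraries in 2 members (6.06%), against 1.58% of all windows and 7.13% of the other tRNA windows. The 9-library joint edgeR test called 0 members (background 0.503%), with 1 at an unadjusted p under 0.05 (background 8.56%). Of 448 other tRNA windows it called 1, with 85 at that unadjusted threshold. The cysteine medians were 0.07, 0.08 and −0.05 in LMNA, LMNB1 and LMNB2, against 0.04, 0.03 and −0.10 for the other tRNA features and 0.00 for all windows. In LMNB2 18 of the 30 cysteine windows and 359 of 449 other tRNA windows were below 0. Between lamins the member medians were −0.17 for LMNB2 minus LMNA and −0.16 for LMNB2 minus LMNB1, and LMNB2 was the lowest lamin in 23 of 33 members (background 35.4%) and in 363 of 449 other tRNA windows. With total counts only the cysteine medians were 0.16, 0.27 and 0.06, beside shifts of 0.09, 0.19 and 0.11 in all windows. Without GFP replicate 3 the LMNA and LMNB1 medians were both −0.03. The mitochondrial share of ATAC counts was 39.9% to 47.5% in GFP and 24.5% to 30.7% in LMNB2, and its part in these values was not tested. The type 3 list had medians of −0.01, 0.03 and −0.08 and 0 changed windows in each lamin by edgeR's quasi-likelihood test. At an unadjusted p under 0.05 there were 2 higher in LMNA (background 2.82%), 0 in LMNB1 and 3 lower in LMNB2 (2.83%). Its U6 copies ran from 0.0409 to 6.07 CPM in ATAC.

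Among single ATAC windows, TRC-GCA7-1 had 0.120, 0.117 and 0.186 CPM in GFP, 0.3, 0.193 and 0.246 with LMNA, 0.102, 0.219 and 0.201 with LMNB1, and 0.153, 0.175 and 0.136 with LMNB2. All LMNA libraries were above GFP, at a log2 fold change of 0.76 ± 0.30 (edgeR's quasi-likelihood test, adjusted p of 0.932). TRC-GCA14-1 (chromosome 17, 38861659 to 38861780) had 2.64, 2.93 and 2.66 in GFP and 3.40, 3.49 and 2.87 in LMNA, a log2 fold change of 0.24 ± 0.10 (edgeR's quasi-likelihood test, adjusted p of 0.937), with 1 library overlapping. These were the only members with an unadjusted p under 0.05 in a comparison of the ATAC libraries of a lamin and GFP. Separation from GFP occurred in 2 members higher in LMNA, TRC-GCA7-1 and TRC-GCA9-4, with 0 lower (background 4.81% and 4.74%), in 1 higher (TRC-GCA2-3) and 1 lower (tRNA-SeC-TCA-3-1) in LMNB1 (4.62% and 3.84%), and in 1 higher (TRC-GCA9-2) and 2 lower (TRC-GCA3-1 and TRC-GCA10-1) in LMNB2 (5.59% and 4.72%).

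In LMNB1 the lowest unadjusted p-values were those of tRNA-Cys-GCA-24-1 (chromosome 17, 38833697 to 38833818) and TRC-GCA5-1 (chromosome 15, 79744630 to 79744752). The former had 0.372, 0.405 and 0.289 CPM in GFP and 0.266, 0.290 and 0.279 in LMNB1, and the latter 0.366, 0.281 and 0.382 in GFP and 0.355, 0.562 and 0.401 in LMNB1. Their log2 fold changes were −0.34 ± 0.20 and 0.35 ± 0.22, with overlapping libraries and an adjusted p of 0.978 for both in edgeR's quasi-likelihood test. In LMNB2 they were TRC-GCA23-1 (chromosome 7, 149595189 to 149595310), at −0.50 ± 0.29, and TRC-GCA9-2 (chromosome 7, 149331104 to 149331225), at 0.20 ± 0.13. TRC-GCA23-1 had 0.202, 0.276 and 0.160 CPM in GFP and 0.146, 0.178 and 0.116 in LMNB2, which overlapped. TRC-GCA9-2 had 1.23, 1.22 and 1.07 in GFP and 1.47, 1.27 and 1.30 in LMNB2, which did not overlap. The adjusted p-values of these 2 windows were 0.906 and 0.911 in edgeR's quasi-likelihood test.

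For the genes with the highest ATAC levels the intervals were narrow. TRC-GCA17-1 had log2 fold changes of −0.01, −0.01 and −0.06 in LMNA, LMNB1 and LMNB2, with 95% intervals of −0.20 to 0.18, −0.20 to 0.18 and −0.25 to 0.13. TRU-TCA1-1 had 0.04, 0.13 and 0.00, with 95% intervals of −0.15 to 0.23, −0.06 to 0.32 and −0.19 to 0.20. TRC-GCA2-4 had 0.03, 0.10 and −0.08, and its LMNB2 interval was −0.27 to 0.11. At TRC-GCA19-1, with 0 to 15 counts, the intervals over the 3 lamins reached from −1.09 to 1.96.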

How the data were processed

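Small RNA and ATAC were each measured in 12 libraries. The authors deposited raw, unnormalized counts per feature, 1 table per assay. Per the submitters' processing notes the build is GRCh38; the aligner, the counter, the use of strand and the treatment of duplicate or multiply mapping reads are not given in the sources used here. Groups came from the sample titles, and the labels' batch number is constant within an assay.

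For each assay a single edgeR 4.0.16 model (R 4.3.3) held every library, using filterByExpr, TMM factors, robust quasi-likelihood dispersions and a prior count of 2. It tested 33893 small RNA features and 163786 ATAC windows. Adjusted p-values follow Benjamini and Hochberg across all features of the assay. Alternatives were DESeq2 1.42.0, other scalings, filters and feature sets, a replicate block and leaving out each library. RefSeq symbols were matched by position.

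The members and lists were chosen with earlier results of these data known. Described in full were all selenocysteine features, the highest and lowest cysteine genes in each assay, members past the threshold, and the 2 lowest p-values per assay and lamin; TRC-GCA1-1, TRC-GCA16-1 and others beyond these were named after their values were seen.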

Additional observations from a re-analysis of the deposited data

How the results depend on the processing

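With all 12 libraries, the count of members called stayed at 0 for LMNB1 in small RNA and for every ATAC comparison under each alternative run, the replicate block included. For DESeq2, members without an adjusted p could not be called, and the counts were also 0 with its p-values adjusted over all features (chosen after seeing the data). In small RNA it became 1 for LMNA without GFP replicate 3 (range 0 to 1 over the 12 fits that left out a library) and 1 for LMNB2 with no count filter (TRC-GCA6-1). The joint count became 6 with no count filter, 1 at an adjusted p under 0.1, 14 with only the 9 lamin libraries and 0 to 6 when a library was left out (1 without GFP replicate 1, 1 without GFP replicate 2, 6 without GFP replicate 3). Alternatives chosen after seeing the data gave 7 with the 9 lamin libraries and total counts only, 5 with these and no lncRNA features, and, leaving out 1 of the 9, 3 (LMNB2 replicate 2), 5 (LMNB2 replicate 1), 8 (LMNB1 replicate 3), 10 (LMNA replicate 1), 11 (LMNB1 replicate 1 or 2), 15 (LMNA replicate 3), 21 (LMNB2 replicate 3) and 22 (LMNA replicate 2). The cause of these shifts was not tested. No share of all features called was worked out for these alternative fits, so the counts have no background beside them. Leaving out a library moved the cysteine medians of LMNA, LMNB1 and LMNB2 to 0.15 to 0.51, −0.03 to 0.44 and −0.37 to −0.03 in small RNA and to −0.03 to 0.12, −0.03 to 0.15 and −0.13 to 0.00 in ATAC. The lowest values of LMNA and LMNB1 came without GFP replicate 2 in small RNA and without GFP replicate 3 in ATAC. Only the ATAC LMNB1 median moved beyond the spread of replicates, to 0.27 with total counts only. The labels do not say that replicate numbers mark a shared source. Correlations of deviations were −0.041 to 0.234 between libraries of the same number and −0.207 to 0.071 between others in small RNA, and −0.076 to 0.195 and −0.155 to 0.09 in ATAC, with 7 of 12 libraries closest to their own number in each. Not every pair exceeded 0.1, so no block was used in the reported values, although some same-number pairs exceeded all others. A replicate block left 0 members called, with small RNA medians of 0.33, 0.25 and −0.16 in LMNA, LMNB1 and LMNB2. Of 2566 alternative log2 fold changes of named members 2 passed the threshold and 129 had the opposite sign to the reported value, all 129 without a call: 65 came from leaving out a GFP library, 38 from leaving out a lamin library and 21 from total counts only. Depth limits TRC-GCA11-1, TRC-GCA19-1, TRU-TCA2-1 in ATAC and tRNA-SeC-TCA-3-1.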
